A study of Arabidopsis thaliana with 6 samples.

Results

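UBC20 (AT1G50490), the RING finger gene AT5G60250 and PAF1 (AT5G42790) are 3 genes of the ubiquitin and proteasome system, and their transcript levels were followed in pollen tubes of Arabidopsis thaliana that lack a pair of arabinogalactan proteins. They are 3 of the 14208 loci with a named probe set on the array. The 3 loci were listed with their difference between the genotypes already known, so their signals are given as a description and without a test. The mutant was agp6 agp11, a single homozygous line with a Ds transposon in AGP6 and in AGP11, and it was set against wild type plants. Both genotypes were of the ecotype Nossen, and pollen of both was taken from newly opened flowers and left to germinate in vitro in the dark for 8 h. The cultures were washed over a nylon net to remove ungerminated grains, and each replicate was a separate preparation pooled from many flowers. Each of the 3 preparations per genotype was measured on 1 Affymetrix ATH1 array. The comparison asks which transcripts differ in level when AGP6 and AGP11 are missing.

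Ubiquitin is a small protein that cells attach to other proteins, most often to have them broken down. An activating enzyme (E1) hands it to a conjugating enzyme (E2), and a ligase (E3), in many cases a protein with a RING finger, brings the loaded E2 to its target. Proteins that carry ubiquitin chains are degraded by the proteasome, in which a barrel-shaped core holds the proteolytic sites and a regulatory particle recognises and unfolds the target. UBC20 encodes an E2, and with its close relative UBC19 it belongs to the E2 group that works with the anaphase-promoting complex, a ligase of the cell cycle. AT5G60250 encodes a zinc finger protein of the RING type and was listed with the RING-between-RING ligases, which take ubiquitin from the E2 themselves before passing it on. PAF1 encodes an alpha subunit of the proteasome core. Inhibitors of the proteasome are known to disturb pollen tube growth.

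The values are normalized signals on a linear scale. The median signal was 23.4 to 24.5 on the agp6 agp11 arrays and 23.3 to 23.9 on the wild type arrays, and a signal of 40 was taken as the level above which a probe set counts as detected. With 3 arrays per genotype, the precision of all values is limited by their number. AGP6 had signals of 31.1, 29.1 and 15.1 in agp6 agp11, against 13313, 13677 and 9597 in wild type, which is at least 301-fold lower. AGP11 had signals of 34.7, 40.4 and 32.5 in agp6 agp11, against 10016, 9448 and 5604 in wild type, which is at least 202-fold lower (limma, Benjamini-Hochberg adjusted p = 2.16e-06 for each gene). All 6 arrays thus matched their labelled genotype. A fold is written as "at least" where 1 genotype exceeded 40 on fewer than 2 of its 3 arrays, and signals of that genotype at or below 40 were then set to 40.

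UBC20 was more than doubled on every agp6 agp11 array relative to every wild type array. Its signal was 3421, 2116 and 2528 in agp6 agp11 replicates 1, 2 and 3, against 811, 777 and 903 in wild type replicates 1, 2 and 3. The means were 2688 ± 667 in agp6 agp11 and 830.1 ± 65.4 in wild type (SD, n = 3 arrays each), a log2 difference of 1.67 (standard error 0.26) or 3.18-fold. The lowest agp6 agp11 array was still 2.34 times the highest wild type array. The spread lay mostly in the mutant, where the SD was 24.8% of the mean, against 7.88% in wild type. Between arrays of the same replicate number, agp6 agp11 exceeded wild type 4.22-fold, 2.73-fold and 2.80-fold for numbers 1, 2 and 3. In whole pollen tubes, more cells of a type and more RNA per cell cannot be told apart.

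AT5G60250 was bright in both genotypes and brighter in agp6 agp11. Its signals were 4407, 2955 and 4084 in agp6 agp11, against 1560.2, 1282 and 1716 in wild type. The means were 3815 ± 762 in agp6 agp11 and 1519 ± 219.7 in wild type (SD, n = 3 each), a log2 difference of 1.32 (standard error 0.26) or 2.49-fold. The groups did not overlap, and the lowest agp6 agp11 array was 1.72 times the highest wild type array. Replicate 2 was the lowest array in both genotypes for AT5G60250 as for UBC20. The ratio of agp6 agp11 to wild type within replicate numbers was 2.82, 2.30 and 2.38, a narrower range than that of UBC20.

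PAF1 lay close to the detection level, and its difference was the smallest of the 3 genes. Its probe set was named only through the study's supplementary table, whose rows had been selected by fold change. Those of UBC20 and AT5G60250 were named by the platform annotation too. The arrays gave 81.5, 65.3 and 59.5 in agp6 agp11, against 36.6, 44.3 and 44.3 in wild type. All 3 agp6 agp11 arrays exceeded 40, as did 2 of the 3 wild type arrays. The means were 68.8 ± 11.4 in agp6 agp11 and 41.7 ± 4.44 in wild type (SD, n = 3 each), a log2 difference of 0.71 (standard error 0.21) or 1.64-fold. The ratio within replicate numbers was 2.23 for number 1, where the mutant array was the highest and the wild type array the lowest, and 1.47 and 1.34 for numbers 2 and 3. With an offset of 32 added to the signals before the log2, the difference was 0.45.

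**Figure D1:**
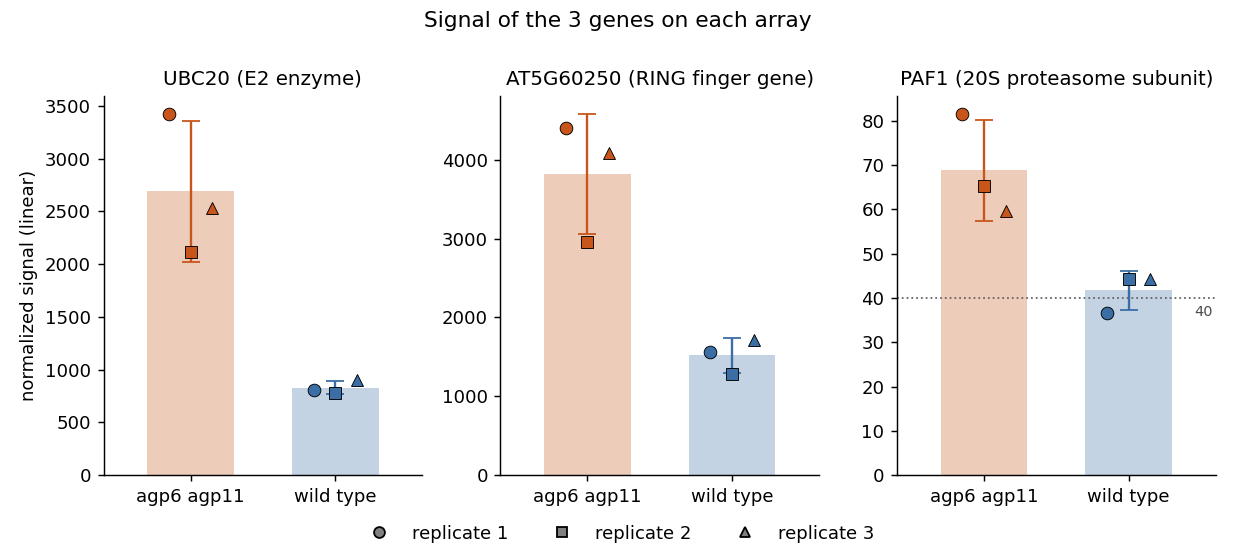
Normalized signal (linear scale) of UBC20, AT5G60250 and PAF1 in agp6 agp11 and wild type pollen tubes: points are single arrays (circle, replicate 1; square, replicate 2; triangle, replicate 3), bars are means and error bars are SD over 3 arrays. In each panel all agp6 agp11 arrays lie above all wild type arrays, and the dotted line in the PAF1 panel marks the detection level of 40.

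All agp6 agp11 arrays lay above all wild type arrays for the 3 genes, a pattern shown by 11.3% of all probe sets (the reverse pattern by 8.71%). In each of the 3 genes agp6 agp11 replicate 1 had the highest signal of all 6 arrays. Across the array, limma called 3.68% of the 22746 probe sets at an adjusted p under 0.05, with 2.01% higher and 1.67% lower in agp6 agp11. Arrays of the same replicate number deviated together, and limma with that number as a block (the replicate block) called 8.34% (5.03% higher, 3.31% lower). Its adjusted p is given where it changes a call. A lower bound of the fold change over 1.3, with the bound taken from the spread between arrays and without the probe-level errors that the study's own rule used, was met by 6.46% (3.69% higher, 2.77% lower).

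Of 5 listed markers of the sperm cells, which travel inside the pollen tube, 4 could be named. All 4 had a positive log2 difference, against 54.5% of all probe sets, and 1 passed limma (2.01% of all probe sets were called higher). HAP2, DAZ1 and DAZ3 were named only through the supplementary table of the study, whose rows had been selected by fold change, and MGH3 by the platform annotation too. The fusion protein gene HAP2 rose, with signals of 507, 266 and 375 in agp6 agp11, against 138, 96.8 and 124 in wild type (log2 difference 1.65, limma adjusted p = 0.0135). Its call was lost when agp6 agp11 replicate 1 (adjusted p = 0.0667) or wild type replicate 1 or 2 (0.0590 and 0.0634) was left out. The histone gene MGH3 (0.68) and the transcription factor genes DAZ1 (0.91) and DAZ3 (0.95) did not pass (adjusted p = 0.241, 0.257 and 0.0637, and 0.0244, 0.0320 and 0.00224 with the block). The summed signal of the 4 markers was 15687 to 21602 in agp6 agp11 and 8740 to 11448 in wild type. Most of it came from DAZ3 alone, with means of 13412 in agp6 agp11 and 6941 in wild type. The vegetative cell markers ACT4 and ACT12, the 2 of 4 listed that could be named, did not pass. Their log2 differences were also positive (0.45 and 0.35, limma adjusted p = 0.442 and 0.671), and ACT4 was named only through that supplementary table. The summed signal of ACT4 and ACT12 was 3703 to 4397 in agp6 agp11 and 2753 to 3330 in wild type. The tapetum marker A9 stayed below 40 on all 6 arrays, and the leaf marker RCA exceeded 40 on a single agp6 agp11 array (47.9). The part of the sperm transcripts in the signals of UBC20, AT5G60250 and PAF1 was not tested.

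Besides UBC20, which was chosen by this contrast, 2 named genes of conjugating enzymes fell in agp6 agp11. Of 44 listed E2 genes, including those of the related modifiers SUMO and RUB, 18 besides UBC20 had a named probe set. None rose, 2 fell and the other 16 did not pass (2.01% of all probe sets rose and 1.67% fell). Their median log2 difference was 0.10, against 0.03 over all probe sets. UBC8 (AT5G41700), a ubiquitin E2 of a large group of near-identical enzymes, was almost lost in the mutant. Its signals were 34.2, 37.6 and 18.0 in agp6 agp11, against 556, 541 and 278 in wild type. This was at least 10.9-fold lower (log2 difference -3.94 as measured, standard error 0.36, limma adjusted p = 0.000401). RCE1 (AT4G36800), the E2 of the cullin modifier RUB, had signals of 21.6, 23.4 and 22.4 in agp6 agp11, against 61.1, 52.4 and 46.7 in wild type, at least 1.33-fold lower (limma adjusted p = 0.00379). Both were named only through that supplementary table. Of the 13 other E2 genes named by the platform table none passed, with log2 differences of -0.49 to 0.35.

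**Figure D2:**
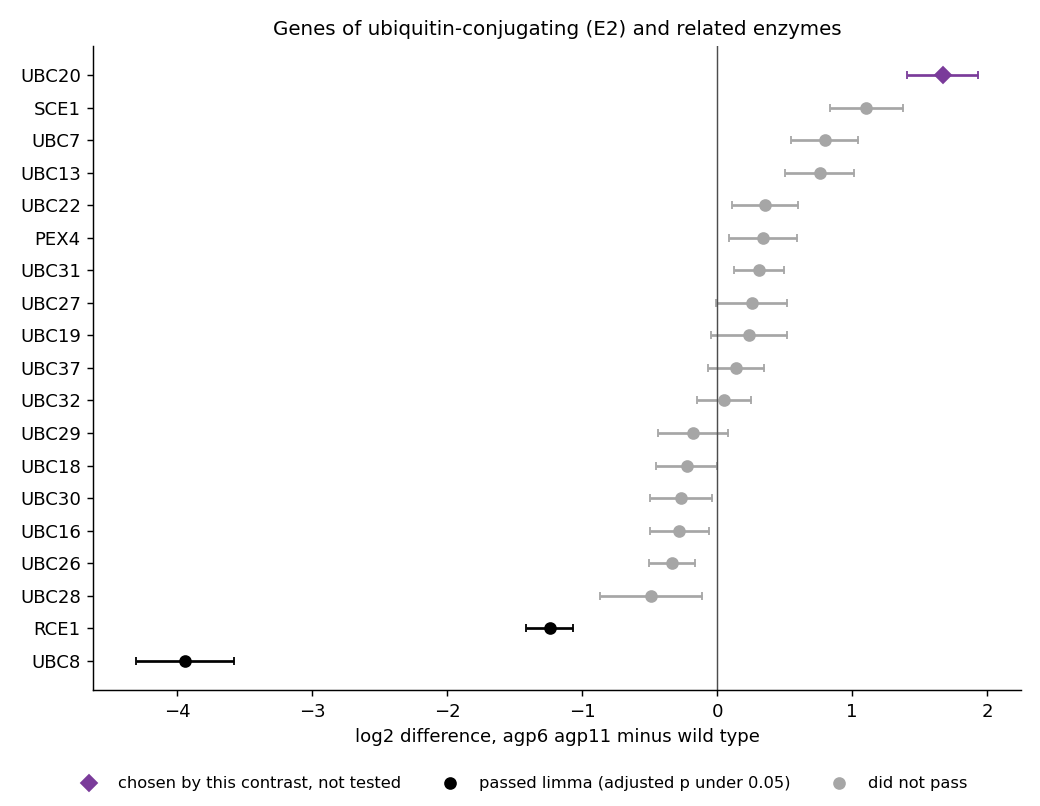
Log2 difference, agp6 agp11 minus wild type, of UBC20 and the 18 other named E2 genes: points are limma estimates and bars are standard errors over 3 arrays each. UBC20 (diamond, not tested) stands at 1.67, and the genes that passed the test (black) are RCE1 at -1.24 and UBC8 at -3.94.

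The signals of UBC19, the close relative of UBC20, overlapped between the genotypes. They were 629, 390.5 and 628 in agp6 agp11 and 453, 398 and 526 in wild type. The log2 difference was 0.23 (standard error 0.28, limma adjusted p = 0.795), and it was -0.01 after quantile normalization. The difference between UBC19 and UBC20 was itself not tested, since UBC20 was chosen by this contrast. Of the relatives of UBC8, UBC28, UBC29 and UBC30 had a named probe set, and none of these passed. UBC28 had signals of 930.1, 1518 and 762 in agp6 agp11, against 1741, 1942 and 877 in wild type, and the groups overlapped (log2 difference -0.49, limma adjusted p = 0.647). UBC30 had signals of 373, 399 and 382 in agp6 agp11, against 453, 448 and 489 in wild type, which did not overlap but did not pass (-0.27, limma adjusted p = 0.688). UBC29 lay near 40 in both genotypes (-0.18, limma adjusted p = 0.838). These E2 genes resemble one another closely in sequence, and how far their probe sets tell them apart was not examined.

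**Figure D3:**
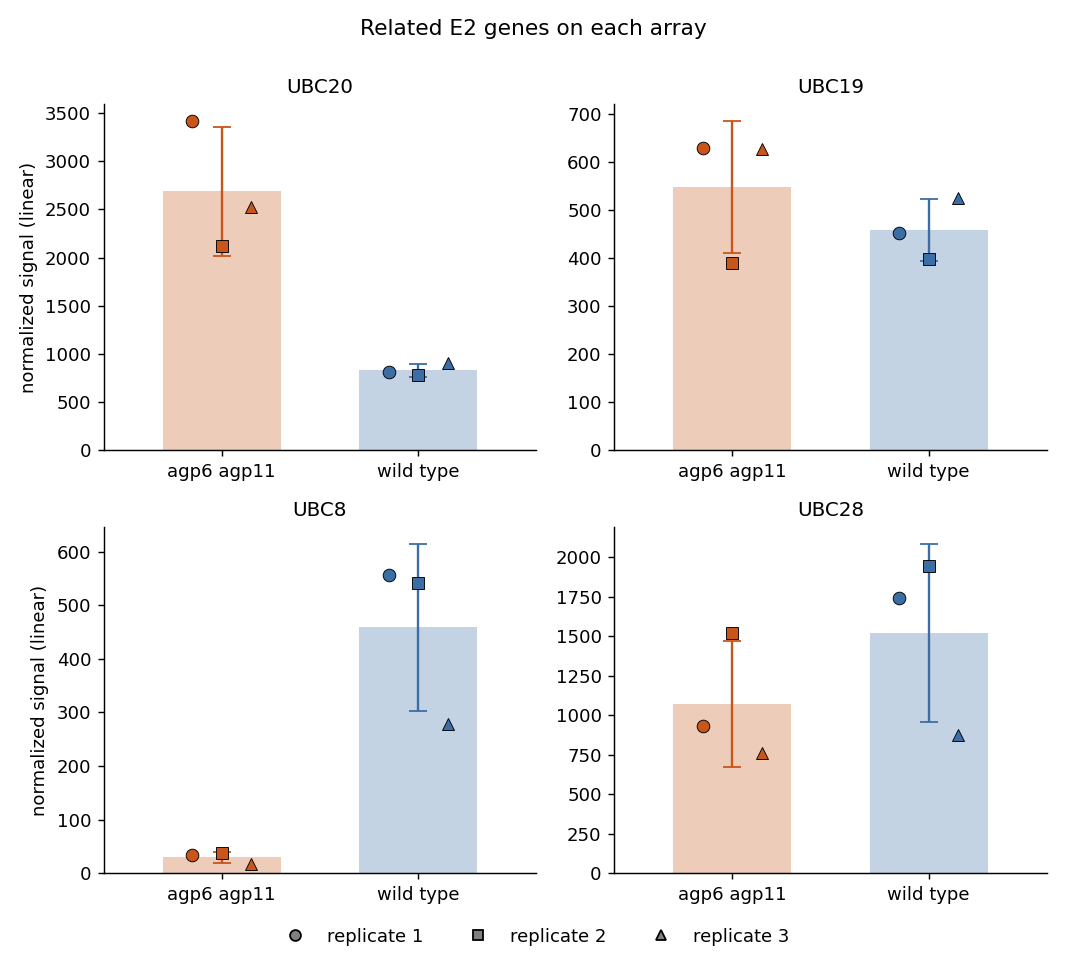
Normalized signal (linear scale) of UBC20 and its relative UBC19 (upper panels) and of UBC8 and its relative UBC28 (lower panels): points are single arrays, bars are means and error bars are SD over 3 arrays. agp6 agp11 and wild type arrays are apart for UBC20 and UBC8 and overlap for UBC19 and UBC28.

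Another 3 E2 genes passed with the replicate block but not without it (with the block 5.03% of all probe sets were called higher). All 3 were named only through the study's supplementary table. In each, as in 11.3% of all probe sets, all agp6 agp11 arrays lay above all wild type arrays. UBC22 was apart in the same way but passed in neither fit (log2 difference 0.35, limma adjusted p = 0.599, and 0.294 with the block). SCE1 (AT3G57870), the SUMO conjugating enzyme, had signals of 820, 541 and 729 in agp6 agp11, against 316, 271 and 379 in wild type (log2 difference 1.11, limma adjusted p = 0.0603, and 0.00278 with the block). UBC7, an E2 gene closely related to UBC13, had 504, 383 and 415 in agp6 agp11, against 269, 211 and 269.8 in wild type (0.80, limma adjusted p = 0.148, and 0.0138 with the block). UBC13 had 88.6, 59.9 and 89.1 in agp6 agp11, against 46.1, 36.0 and 59.0 in wild type (0.76, limma adjusted p = 0.192, and 0.0199 with the block). Replicate 2 was the lowest array of both genotypes for SCE1, UBC7 and UBC13, as for UBC20 and AT5G60250. The same held for UBC19 and for the sperm markers HAP2, MGH3 and DAZ3, but not for DAZ1. How common this is over all probe sets was not examined. For UBC26, a dim gene below 40 on every array, the log2 difference was -0.33 (limma adjusted p = 0.438).

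Of 37 listed RING-between-RING genes, 17 besides AT5G60250 had a named probe set, and 10 of these were detected in neither genotype. By limma 2 rose and 1 fell, against 2.01% and 1.67% of all probe sets. With the block 4 rose and 1 fell, against 5.03% and 3.31% of all probe sets. The log2 difference was positive for 13 of the 17, against 54.5% of all probe sets, with a median of 0.40 (all probe sets 0.03). Of the 14 that the platform annotation names, 1 rose and none fell (2.04% and 1.61% of all probe sets so named). Their median log2 difference was 0.35. AT2G25370 had signals of 89.4, 44.7 and 79.0 in agp6 agp11, against 17.5, 25.9 and 14.7 in wild type, at least 1.70-fold higher (limma adjusted p = 0.00806). It was thus detected only in agp6 agp11, and its call was lost without agp6 agp11 replicate 1 or wild type replicate 1 (adjusted p = 0.0519 and 0.0542).

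ARI1 (AT4G34370), of the ARIADNE group of these ligases, also rose. The signals of ARI1 were 475, 336 and 336 in agp6 agp11, against 179, 167 and 188 in wild type, 2.12-fold higher (limma adjusted p = 0.0434). That call was lost whichever array was left out (adjusted p = 0.0667 to 0.206), as also after quantile normalization (0.0608), median centring (0.0590) and an offset of 32 (0.0661). ARI14 fell in the test (log2 difference -0.78, limma adjusted p = 0.0282), but its signals of 14.3 to 15.2 in agp6 agp11 and 21.5 to 27.7 in wild type were all below 40. Its call was lost without replicate 1 or 2 of agp6 agp11 (adjusted p = 0.129 and 0.0951) or of wild type (0.155 and 0.113). ARI7 had signals of 96.9, 80.0 and 85.7 in agp6 agp11, against 49.8, 41.1 and 68.2 in wild type (0.75, limma adjusted p = 0.153, and 0.0359 with the block). AT2G19610 (0.71, limma adjusted p = 0.288, and 0.0226 with the block) overlapped between the genotypes and was below 40 on all wild type arrays. AT3G45510 (0.40) and AT3G14250 (0.60) did not pass in either fit.

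**Figure D4:**
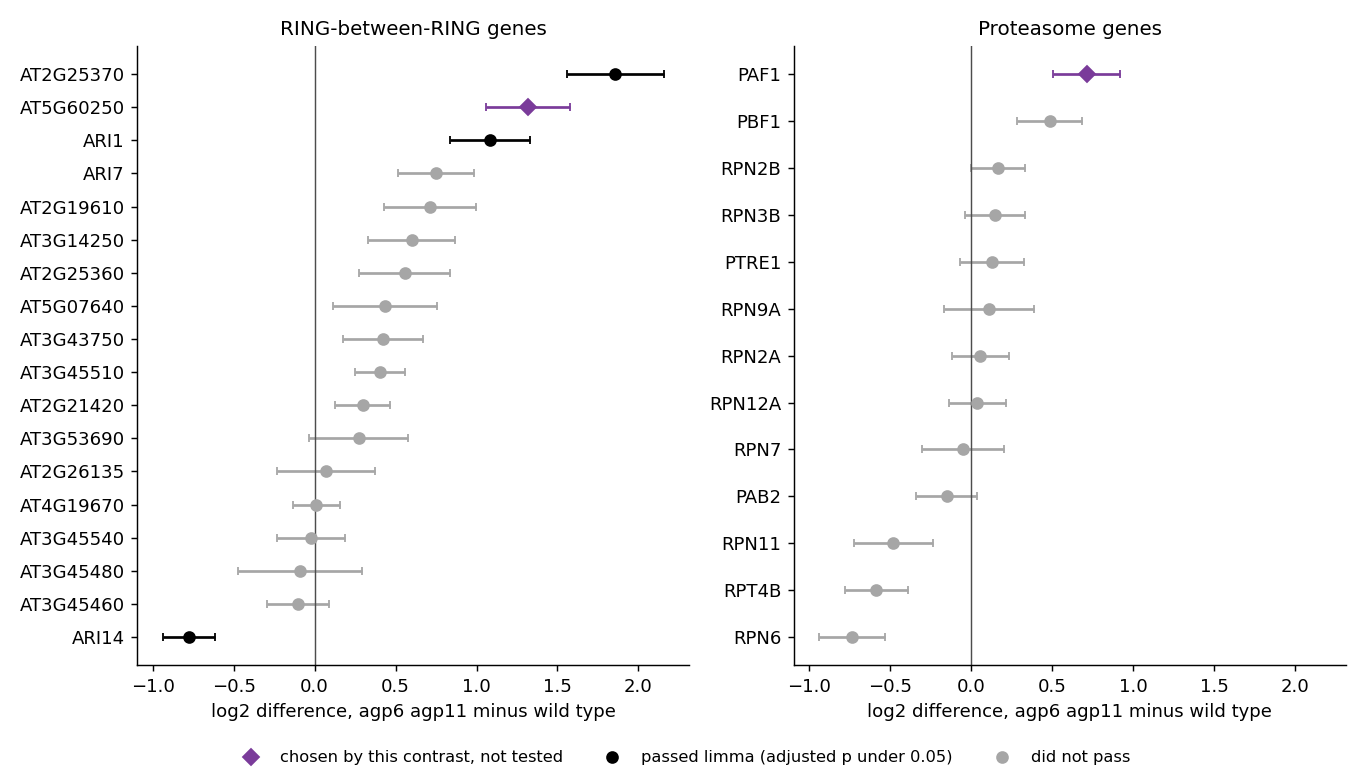
Log2 difference, agp6 agp11 minus wild type, of named RING-between-RING genes (left) and proteasome genes (right): points are limma estimates and bars are standard errors over 3 arrays each. AT5G60250 and PAF1 are diamonds (not tested), genes that passed the test are black, and of the other genes 13 of 17 on the left and 7 of 12 on the right lie above 0.

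A search of gene symbols and synonyms for the word RING gave 48 loci, of which 6 had a named probe set. By limma 1 of these fell and none rose, against 1.67% and 2.01% of all probe sets. RHA3A (AT2G17450), a RING-H2 ligase gene, had signals of 21.1, 20.9 and 20.7 in agp6 agp11, against 65.3, 87.1 and 59.2 in wild type, at least 1.74-fold lower (limma adjusted p = 0.00113). RDUF2 (AT5G59550), a RING ligase gene, had signals of 4204, 2853 and 2834 in agp6 agp11, against 1629, 1404 and 1642 in wild type (log2 difference 1.06, limma adjusted p = 0.0594, and 0.00346 with the block). The genotypes did not overlap in RDUF2, and agp6 agp11 replicate 1 was again the highest of the 6 arrays. AT1G11100 (0.39), RHF1A (-0.36), RING1 (-0.35) and BRH1 (0.05) did not pass.

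Of 55 listed proteasome genes, 12 besides PAF1 were named on the array and limma called none of them. An unadjusted p under 0.05 was reached by 3 (by 3131 of all 22746 probe sets). With the block 1 was called (8.34% of all probe sets), and by the lower bound of the fold change 1 (6.46%). The 12 genes had a median log2 difference of 0.05 and spread from -0.74 to 0.49. PBF1 (AT3G60820) encodes a beta subunit of the core and exceeded 40 on 3 agp6 agp11 arrays and 1 wild type array. It had signals of 59.9, 48.3 and 44.2 in agp6 agp11, against 30.9, 37.3 and 40.3 in wild type, at least 1.26-fold higher. The difference did not pass (limma adjusted p = 0.312). RPN6 (AT1G29150), a lid subunit gene of the regulatory particle, differed in the other direction. It had signals of 49.0, 56.2 and 59.5 in agp6 agp11, against 86.9, 84.5 and 103.3 in wild type (-0.74, limma adjusted p = 0.0955, and 0.0209 with the block). RPN11, the deubiquitinating subunit of the lid, had 59.2, 62.7 and 53.1 in agp6 agp11, against 66.3, 72.4 and 111.1 in wild type (-0.48, limma adjusted p = 0.437, and -0.25 without wild type replicate 3). RPT4B, an ATPase subunit gene, was below 40 on every array (-0.58, limma adjusted p = 0.183). The signals of these named genes were low, with 3 of the 12 detected in agp6 agp11, 2 in wild type and 9 in neither. Listed proteasome genes without a named probe set were not examined.

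The remaining steps of the pathway held no call by limma, and 4 genes passed with the block, all higher in agp6 agp11 (5.03% of all probe sets were called higher with the block). Of these, UBQ2, CUL3A and UCH3 were named only through the supplementary table selected by fold change. UBQ2 (AT2G36170), the single named gene of 15 listed for ubiquitin itself and its E1, is known as a fusion of ubiquitin with a ribosomal protein. Its signal was 349.8, 291 and 246 in agp6 agp11, against 182, 184 and 187 in wild type (0.67, limma adjusted p = 0.224, and 0.0436 with the block). Cullins are the scaffolds of multi-subunit ligases, and 4 of 26 listed genes of cullin ligases and the anaphase-promoting complex could be named. CUL4 had signals of 376, 349 and 259 in agp6 agp11, against 183, 189.8 and 167 in wild type (0.85, limma adjusted p = 0.115, and 0.0115 with the block). CUL3A had 389, 326 and 238 in agp6 agp11, against 239, 218 and 129 in wild type, which overlapped (0.72, limma adjusted p = 0.342, and 0.0225 with the block). Without wild type replicate 3 the log2 difference of CUL3A was 0.45. CDC27A (0.17) and HBT (-0.33), which encode subunits of the anaphase-promoting complex, did not pass. Deubiquitinating enzymes take ubiquitin off again, and 4 of 16 listed genes could be named. UCH3 had 298, 213 and 251 in agp6 agp11, against 149.9, 153 and 168 in wild type (0.68, limma adjusted p = 0.208, and 0.0405 with the block). UBP16 (0.22), UBP26 (0.29) and UBP15 (-0.05) did not pass.

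Over all 7 lists, 62 of 239 loci could be named besides UBC20, AT5G60250 and PAF1. Of these, 2 rose, 4 fell and 56 did not pass limma. With the block 12 rose and 5 fell, or 27.4%, against 8.34% of all probe sets, and 14 of these 17 calls came from genes named only by the table that the study had selected by fold change. Without the block the share called was 9.68%, against 3.68% of all probe sets, and 5 of the 6 calls came from the 16 genes named only by that table. Of the 46 genes that the platform annotation names, 1 was called, against 3.65% of all probe sets so named (2.04% higher, 1.61% lower). The number of genes detected was 29 of 62 in agp6 agp11 and 28 of 62 in wild type.

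The neighbours of the 3 genes on their chromosomes were compared for the 5 nearest named loci on each side, in the gene order of RefSeq TAIR10.1. None of 10 neighbours of UBC20 passed (log2 differences of -0.16 to 0.57), and none of 10 neighbours of PAF1 (-0.51 to 0.64). Next to AT5G60250, however, AT5G60260 rose. It had signals of 397, 388 and 271 in agp6 agp11, against 143, 164 and 112 in wild type (log2 difference 1.33, standard error 0.27, limma adjusted p = 0.0237). The lowest array in both genotypes was replicate 3 for AT5G60260 and replicate 2 for AT5G60250. The RefSeq gene models of AT5G60250 and AT5G60260 overlap, and whether their probe sets read the same transcript was not tested. The call of AT5G60260 was kept without agp6 agp11 replicate 3 (adjusted p = 0.0176) and lost without any other single array, with adjusted p up to 0.126. The other 9 neighbours of AT5G60250 had log2 differences of -0.34 to 0.26.

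**Figure D5:**
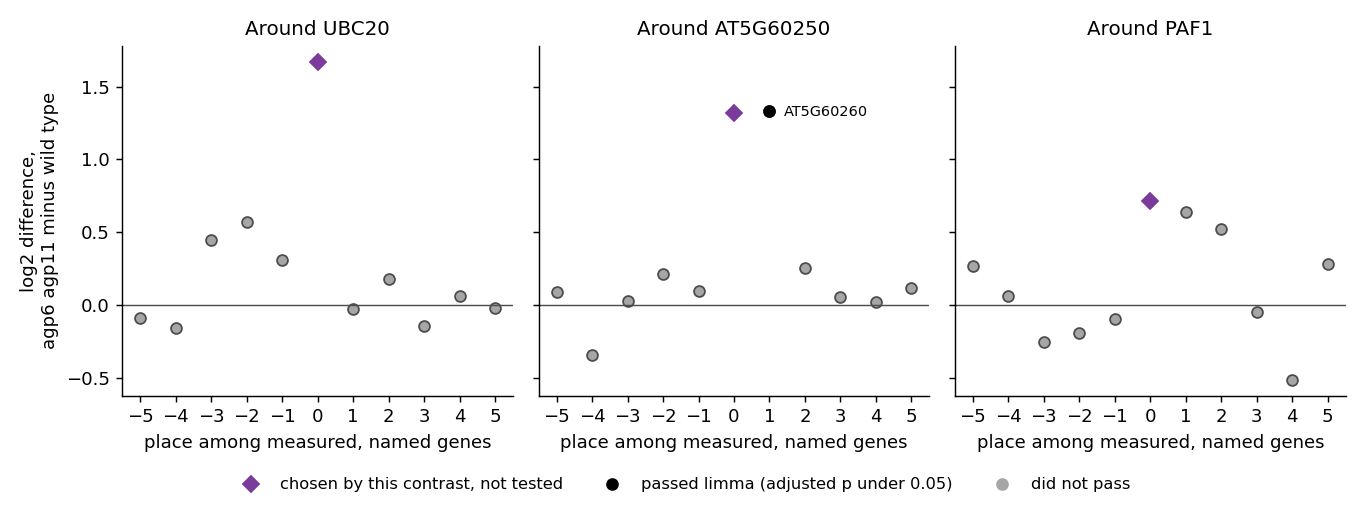
Log2 difference, agp6 agp11 minus wild type, of the 5 nearest named loci on each side of UBC20, AT5G60250 and PAF1 against their place in gene order: diamonds at 0 are the 3 genes themselves (not tested) and circles are neighbours. The only black point, a gene that passed limma, is AT5G60260 at 1.33 beside AT5G60250.

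The genes whose pattern over the 6 arrays was most like each of the 3 were found by Pearson correlation of log2 signals among 4645 other named and detected probe sets. As the genotype difference and the shared replicate numbers enter these values, they are given as a description. The pattern of UBC20 was most like those of AT1G71840 (r = 0.999), AT2G35330 (0.998) and AT1G49940 (0.998). That of AT5G60250 was most like those of AT4G09620 (0.998), AT1G49870 (0.997) and AT3G45770 (0.997). That of PAF1 was most like those of AT5G06210 (0.992), AT5G36230 (0.986) and EMB2756 (AT1G34550; 0.985). All 9 had higher mean signals in agp6 agp11 than in wild type, with log2 differences of 1.41 to 2.00 for the 3 genes like UBC20, 1.15 to 1.87 for those like AT5G60250 and 0.47 to 1.14 for those like PAF1. AT1G71840 had a mean signal of 590.2 in agp6 agp11 and 146 in wild type, and AT4G09620 had 2592 in agp6 agp11 and 876 in wild type. AT5G06210, a gene for a small RNA-binding protein, had 73.0 in agp6 agp11 and 46.2 in wild type.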

How the data were processed

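Pollen tube RNA of 3 agp6 agp11 and 3 wild type preparations was measured on Affymetrix ATH1 arrays. The authors normalized the 6 arrays with dChip (invariant set method) and deposited model-based intensities on a linear scale, computed from the perfect match probes only. Neither step was repeated. Their Present and Absent calls, made in Affymetrix Expression Console per the submitters' processing notes, were not used. The genome build behind the probe sets is not given in the sources used here.

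Signals were raised to at least 1, taken as log2 and fitted in limma 3.58.1 under R 4.3.3 (lmFit, then eBayes with an intensity trend), with Benjamini-Hochberg adjustment over all 22746 probe sets and a threshold of 0.05. As an alternative rule after the study's methods, the 90% lower bound of the fold change, computed from the spread between arrays, had to exceed 1.3. The script was tested on simulated data. Names came from a platform table (13513 with 1 gene, 503 with several, 8730 with none) and from 1995 rows of the study's supplementary table. These sources agreed except for 26 of 1153 shared probe sets, where the supplementary name was kept. Together 14355 probe sets were named, and 14157 of the 14208 loci were found in RefSeq TAIR10.1. The brightest probe set stood for a locus.

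The 3 genes and the gene lists were chosen with earlier results of these data known. The text names list genes that passed the test, up to 4 others per list with the smallest p, and close relatives of UBC20 and UBC8. BRH1, from the search for RING names, is given outside this rule. UBC22 and UBC28 to UBC30 were added after their values were seen. A planned list of RING genes from a protein motif was replaced by a search of gene names, because no protein table was used here. UBQ10, UBC9 and PAF2 had no named probe set and were not analysed here.

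Replicate numbers come from the sample titles, which do not say what arrays of 1 number share. Deviations from the genotype means correlated at 0.239, 0.347 and 0.379 between arrays of the same number and at 0.0711 or less otherwise. Each same-number value exceeded 0.1, so limma was also run with the number as a block (replicate block). Calls given without mention of the block come from the fit that does not pair the arrays. The alternatives were array weights, eBayes with no trend, quantile normalization, median centring, an offset of 32, a filter on mean level, leaving out probe sets with names ending in _s_at or _x_at, and leaving out each array in turn.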

Additional observations from a re-analysis of the deposited data

How the results depend on the processing

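With array weights, the replicate block and the lower bound of the fold change, the calls over all probe sets were 2019, 1897 and 1469, against 837 in the fit reported, and those over the 7 lists were 17, 17 and 13, against 6. In the same order, the E2 list gave 5, 5 and 4 calls against 2, the proteasome list 2, 1 and 1 against 0, and the cullin and anaphase-promoting complex list 1, 2 and 1 against 0. The RING-between-RING list gave 5 with array weights or the block, against 3. The filter on the mean level left 1 call among RING-between-RING genes and gave 1 among proteasome genes. Names from the platform table alone, a choice made after the data were seen, left 1 call over all lists. Leaving out 1 array gave 372 to 871 calls over all probe sets (with agp6 agp11 replicate 1 left out 403, and with wild type replicates 1 and 2 left out in turn 372 and 538), 3 to 5 over the lists (3 without replicate 1 of either genotype), 2 for E2 genes throughout, and 0 to 2 for RING-between-RING genes (0 without replicate 1 of either genotype). Among list genes the block changed no other call than those given above.

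The log2 differences of UBC20 (1.47 to 1.83) and AT5G60250 (1.17 to 1.49) kept their direction under all 14 alternatives. That of PAF1 was 0.45 with the offset of 32, 0.92 with array weights and 0.58 to 0.81 without 1 array. Signs turned in genes that did not pass: UBC19 was -0.00833 after quantile normalization, and without 1 array the ranges were -0.000163 to 0.35 for CDC27A (lowest without agp6 agp11 replicate 1), -0.11 to 0.52 for UBP26 (lowest without agp6 agp11 replicate 3), -0.43 to 0.0162 for UBC29 (highest without agp6 agp11 replicate 3) and -0.30 to 0.12 for UBP15 (above 0 without agp6 agp11 replicate 1 or 2 or wild type replicate 3). The causes were not tested. Signals below 40 limit what can be said of most of the named proteasome genes.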

Other observations

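SCE1 and UBC8 also had a neighbour that passed the test, among the 5 nearest named loci on each side. AT3G57880, directly beside SCE1, had signals of 1558, 968 and 898 in agp6 agp11, against 45.7, 51.7 and 36.7 in wild type (log2 difference 4.64, standard error 0.29, limma adjusted p = 3.08e-05), and it was past the threshold whichever array was left out. The loci on either side of this pair were UVI4-LIKE (AT3G57860) and AT3G57890. UVI4-LIKE was at least 1.31-fold higher (limma adjusted p = 0.0805, and 0.0159 with the replicate block). For AT3G57890 the log2 difference was 1.20 (limma adjusted p = 0.0848, and 0.00266 with the block). Both loci passed with the block and not without it, and their values under the other alternatives were not examined. AT5G41685, a gene near UBC8, had signals of 51.5, 59.6 and 52.9 in agp6 agp11, against 105.6, 119 and 104 in wild type (means 54.6 ± 4.33 in agp6 agp11 and 109 ± 8.23 in wild type, SD, n = 3 each, limma adjusted p = 0.0225), and it stayed past the threshold in 1 of the 6 fits that leave out an array. These loci were examined because of the values of SCE1 and UBC8.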
